A study of Mus musculus with 39 samples.

Results

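Hamp, the gene for the iron hormone hepcidin, varied 9.95-fold among 28 livers of mice fed a Western diet, and the comparison described here set the 9 livers with the highest Hamp level against the 9 with the lowest. The 18 livers were selected on their measured Hamp level, in CPM (the deposited read count divided by the library's summed count and multiplied by 1000000), out of 39 liver libraries in the series. The ranking took the livers titled Western diet of both genotypes and left out 2 of the 30, so that 28 were ranked and 10 fell between the groups. The mice were male CD163 knockouts, carrying the allele CD163tm1(KOMP)Vlcg, and wildtype littermates, all on a C57BL/6NTac background. CD163 is the scavenger receptor through which macrophages take up haemoglobin bound to haptoglobin. From 6 weeks of age the mice had 8 weeks on either diet, with plain water beside the chow and fructose water beside the Western diet, and RNA was sequenced from snap-frozen whole liver, 1 library per mouse as the labels give it. The high group held 6 wildtype and 3 knockout livers and the low group 4 wildtype and 5 knockout livers. The livers between them were 4 wildtype and 6 knockout livers, and all 28 came from mice on the Western diet. Genotype was a covariate in the reported fits of both genotypes, but not in those of 1 genotype alone. Printed CPM levels are not adjusted for it. A further 9 chow livers, 5 wildtype and 4 knockout, were fitted separately.

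Hepcidin is a peptide hormone made mainly by hepatocytes. It binds the iron exporter ferroportin and causes its loss from the cell surface, so that less iron leaves gut cells and macrophages for the blood. Its gene is switched on chiefly through bone morphogenetic protein (BMP) signalling: BMP6 and BMP2 from the cells lining the liver sinusoids bind receptors on hepatocytes, with hemojuvelin as a co-receptor, and SMAD proteins carry the signal to the gene. Interleukin 6 acts on the same promoter through STAT3 during inflammation, and the protease matriptase-2 (Tmprss6) dampens the BMP signal.

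Mice carry a pair of neighbouring hepcidin genes, Hamp and Hamp2, and their promoters are shown because the sites of both signals lie there. Each window runs from 250 bases before to 50 bases after the RefSeq start on GRCm38.p6, printed 5′ to 3′ on the gene's own strand. Capitals mark the motifs searched for on both strands: the BMP response element GGCGCC and the STAT site TTCNNNGAA. The Hamp window is chr7:30943980-30944279 on the minus strand and the Hamp2 window is chr7:30924132-30924431 on the minus strand.
Hamp: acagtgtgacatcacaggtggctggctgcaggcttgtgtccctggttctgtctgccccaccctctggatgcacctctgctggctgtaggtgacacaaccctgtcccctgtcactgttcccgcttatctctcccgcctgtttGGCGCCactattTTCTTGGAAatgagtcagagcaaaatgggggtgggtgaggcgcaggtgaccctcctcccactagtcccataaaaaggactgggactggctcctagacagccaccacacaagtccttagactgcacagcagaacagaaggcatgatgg
Hamp2: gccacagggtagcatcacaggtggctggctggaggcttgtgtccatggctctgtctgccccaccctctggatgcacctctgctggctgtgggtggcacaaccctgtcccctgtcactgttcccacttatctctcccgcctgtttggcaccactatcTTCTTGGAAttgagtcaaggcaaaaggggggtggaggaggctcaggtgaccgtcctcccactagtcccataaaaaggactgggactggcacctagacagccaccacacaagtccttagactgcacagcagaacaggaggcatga
The windows were identical at 276 of 297 aligned positions (92.9%). GGCGCC lay 109 bases before the start of Hamp and had no match in the Hamp2 window, where the aligned letters differed by the substitution G4A, counted from the 5′ end of the element with the Hamp base first. The STAT site read TTCTTGGAA in both, 97 bases before the start of Hamp and 94 before that of Hamp2. Among 32851 mouse promoter windows of this length, 11.9% held GGCGCC and 8.3% held TTCNNNGAA. A match is a description of letters and not a measurement of binding.

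The Hamp level that set the groups ran from 48.8 to 485 CPM over the 28 livers, with a median of 198 CPM, on 1031 to 12712 counts per library. In the high group the wildtype livers L, M, E, J, I and F had 485, 439, 433.6, 403.3, 272 and 246 CPM and the knockout livers F, H and C had 417.6, 245 and 243 CPM. In the low group the wildtype livers B, G, K and C had 168, 157, 138 and 80.4 CPM and the knockout livers D, B, K, A and L had 166, 137, 119, 73.1 and 48.8 CPM. The group means were 354 ± 99.9 CPM and 121 ± 43.6 CPM (SD, n = 9 each), a ratio of 2.93, given as a description of the choice and not tested. The cut-offs fell in a continuous run of values: the ninth liver had 242.73 CPM and the tenth 231.35 CPM, and at the lower end the last liver kept between the groups had 177.8 CPM and the first of the low group 167.5 CPM. By genotype, the 14 wildtype livers spanned 80.4 to 485 CPM (260 ± 128 CPM, SD) and the 14 knockout livers 48.8 to 417.6 CPM (188 ± 87.9 CPM, SD).

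**Figure D1:**
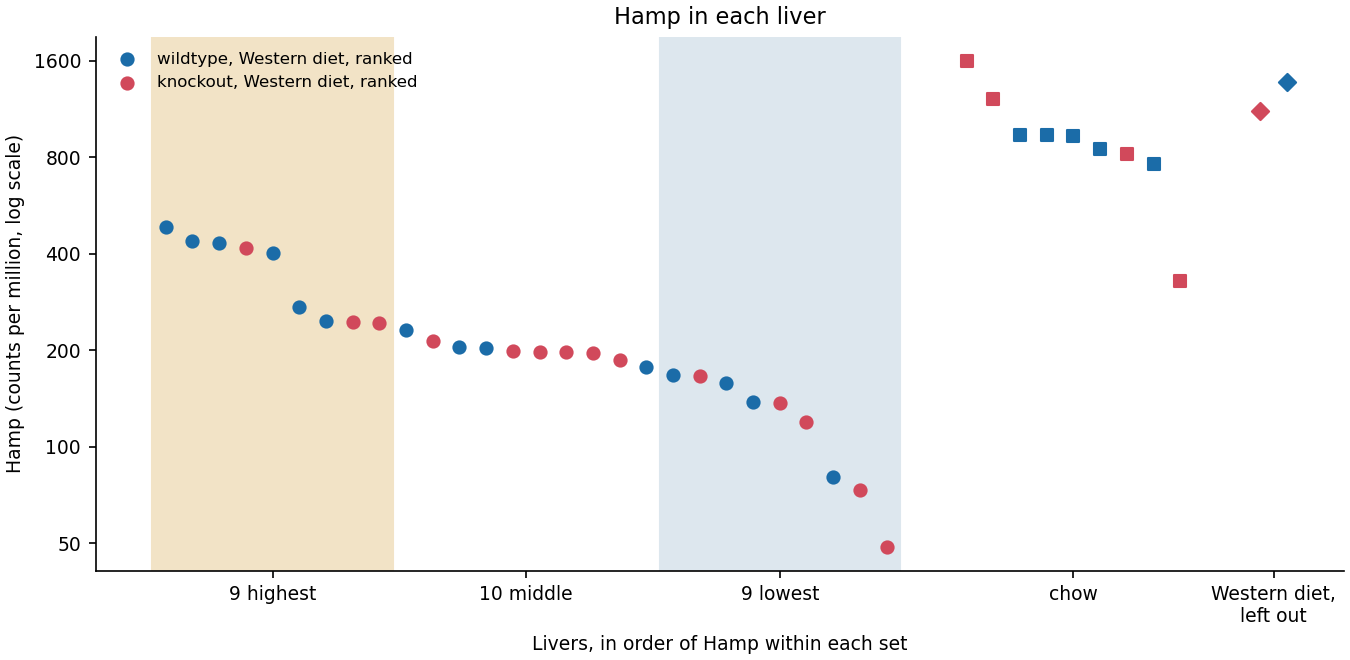
Hamp level in CPM (log axis) of every liver, placed by its rank for the 28 Western diet livers and beside them the chow livers and the 2 left-out livers. The 28 ranked livers lie between 48.8 and 485 CPM without a gap at either cut-off, and the chow livers lie between 329 and 1598 CPM.

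The libraries behind these values held 8578865 to 30438808 counts, 10329415 to 30438808 in the high group and 8578865 to 21141803 in the low group. Cd163, the targeted gene, stood at 2.54 to 15.0 CPM in the 14 ranked wildtype livers and at 0 to 0.652 CPM in the 14 ranked knockout livers. The left-out livers, wildtype A and knockout M, had Hamp levels of 1371 and 1118 CPM, above the median of the chow livers (932 CPM). Their Cyp51 levels, for an enzyme of cholesterol synthesis that dietary cholesterol lowers, were 216 and 235 CPM, against 21.6 to 74.8 CPM in the 28 ranked livers. Conversely the chow libraries wildtype A and knockout D had Cyp51 levels of 47.0 and 38.9 CPM, against 179 to 236 CPM in the other 7 chow livers, so these 4 libraries went against their diet labels in that gene. Ranking all 30 livers would have kept 7 of the 9 high livers and all 9 low livers.

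Hamp2 did not follow Hamp across the groups. Its level in the high group had a minimum of 2.23, a median of 3.54 and a maximum of 14 CPM, and in the low group a minimum of 1.56, a median of 8.04 and a maximum of 32.7 CPM, so the groups overlapped. The log2 difference, high minus low, was -1.40 (SE 0.54, adjusted p = 0.962, edgeR quasi-likelihood test with Benjamini-Hochberg adjustment). The median ratio of Hamp to Hamp2 was 79.95 in the high group, 31.05 in the livers between and 9.505 in the low group, and Hamp2 made up 0.532% to 21.5% of the counts of the pair. The ratio contains the value that chose the groups. Their transcripts are 94.6% identical, so reads could be split between the genes in counting and the Hamp2 level is uncertain.

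Across all other genes no gene passed the test between the high and the low livers. Of 13761 genes tested, 0 (0%) had an adjusted p under 0.05 in edgeR's quasi-likelihood test, with a smallest adjusted p of 0.221. Without adjustment, 277 genes (2.01%) were higher and 336 genes (2.44%) lower in the high group at p under 0.05, 4.45% in all. limma-voom with quality weights also made 0 calls, with 681 genes higher and 670 lower before adjustment, and DESeq2 called 1 gene, lower in the high group. For 0 genes (0%) were the CPM ranges of the 9 and the 9 livers apart. The median log2 difference of all genes was 0.01, and 47.3% of genes had a negative one. Every gene and list below is therefore described by its values, and counts at unadjusted p in this fit are read beside the 2.01% and 2.44% of all genes. Counts from refits have other backgrounds. Of the 13761 genes, 798 were higher and 675 lower without wildtype G, 334 and 444 without knockout F, and 237 and 197 without wildtype C. Among knockout livers alone 1194 were higher. In a fit of either genotype alone at most 842 were lower. Over all alternatives other than leaving out 1 liver, which include each genotype alone, 138 to 1194 were higher and 172 to 842 lower. Each is a measurement of whole tissue, in which fewer cells of a type and less RNA per cell cannot be told apart.

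The gene with the smallest p was Snhg11, a long non-coding RNA that hosts small nucleolar RNAs. Its level was 7.48, 11.4 and 13.7 CPM (minimum, median, maximum) in the high group and 11.2, 16.0 and 28.4 CPM in the low group. The groups overlapped, and all 9 high livers lay below the low mean of 17.7 CPM. Its log2 difference was -0.81 (SE 0.14, edgeR adjusted p = 0.221), and it was the gene that DESeq2 called, with an adjusted p of 0.000489. The livers between the groups had a median of 19.1 CPM, above both, so its level did not follow the rank of Hamp. The genes next by p that are given here all had an edgeR adjusted p of 0.962. Taf7, a subunit of the general transcription factor TFIID, had a log2 difference of -0.52 (SE 0.11). Ggct, an enzyme of glutathione breakdown, averaged 11.5 CPM in the high and 14.1 CPM in the low group (log2 difference -0.33, SE 0.08). The pseudogene Rpl26-ps6 had a log2 difference of 1.11 (SE 0.26) and a high-group mean of 1.18 CPM, and Fam129c had 1.12 (SE 0.27) at a mean of 3.39 CPM.

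Among groups of genes with a shared role, those of cholesterol synthesis had lower values in the high-hepcidin livers. All 24 listed genes of cholesterol synthesis and uptake and of their control by SREBP2 had a negative log2 difference, 16 of them (66.7%) at unadjusted p under 0.05, with a list median of -0.48 against 0.01 for all genes. None passed after adjustment. The mean log2 CPM of the list was 4.85 to 5.41 in the high group and 5.04 to 6.30 in the low group, which overlap. For 8 of the 24 genes (33.3%) all 9 high livers lay below the low mean, against 1.08% of all genes.

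Hmgcs1, which makes the HMG-CoA that enters the pathway, had the list's lowest log2 difference. Its promoter, chr13:119690101-119690400 on the plus strand (RefSeq, GRCm38.p6), is shown because it holds both motifs searched for in this pathway: capitals mark the sterol response element TCACNCCAC, found as TCACCCCAC 137 bases before the start, and the CCAAT box, found 4 times on the opposite strand as ATTGG.
Hmgcs1: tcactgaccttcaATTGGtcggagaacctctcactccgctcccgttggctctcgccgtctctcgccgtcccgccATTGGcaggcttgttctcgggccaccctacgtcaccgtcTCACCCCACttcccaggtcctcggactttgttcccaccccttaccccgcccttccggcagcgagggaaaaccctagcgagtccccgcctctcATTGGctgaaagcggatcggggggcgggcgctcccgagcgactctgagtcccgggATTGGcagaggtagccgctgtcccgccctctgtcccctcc
Of 19 of the 24 genes with a window, 1 (5.26%) held TCACNCCAC and 15 (78.9%) held CCAAT, against 1.24% and 37.4% of all windows. The wildtype high livers L, M, E, J, I and F had Hmgcs1 levels of 63.2, 65.2, 145, 121, 105 and 90.8 CPM, and the knockout high livers F, H and C 143, 92.8 and 144 CPM. The wildtype low livers B, G, K and C had 219, 73.9, 171 and 335 CPM, and the knockout low livers D, B, K, A and L 194, 156, 270, 131 and 208 CPM. Of the low livers only wildtype G and knockout A fell within the range of the high group. The means were 108 ± 32.4 CPM and 196 ± 76.6 CPM (SD, n = 9 each), a log2 difference of -0.88 (SE 0.24, edgeR adjusted p = 0.962).

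Insig1, which holds SREBP in the endoplasmic reticulum when sterols are plentiful, averaged 218 ± 60.4 CPM in the high and 303 ± 58.9 CPM in the low group (SD, n = 9 each; log2 difference -0.53, SE 0.15). Dhcr7, the enzyme of the last step to cholesterol, had a median of 44.5 CPM in the high and 57.6 CPM in the low group (log2 difference -0.51, SE 0.14). Cyp51 averaged 29.8 ± 4.94 CPM and 42.2 ± 16.0 CPM (log2 difference -0.58, SE 0.17). Fdps, which makes farnesyl diphosphate, ranged from 16.0 to 24.1 CPM in the high and from 16.1 to 84.8 CPM in the low group (log2 difference -0.79, SE 0.25). The difference was smaller for Srebf2, which encodes SREBP2 (48.1 against 51.1 CPM, log2 difference -0.14). The low wildtype liver C had the highest level of the list, 6.30, and without it all 24 differences remained negative, with 11 at p under 0.05 and a median of -0.31. Within genotypes, 23 of 24 were negative among wildtype livers (median -0.55) and 22 of 24 among knockout livers (median -0.35).

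**Figure D2:**
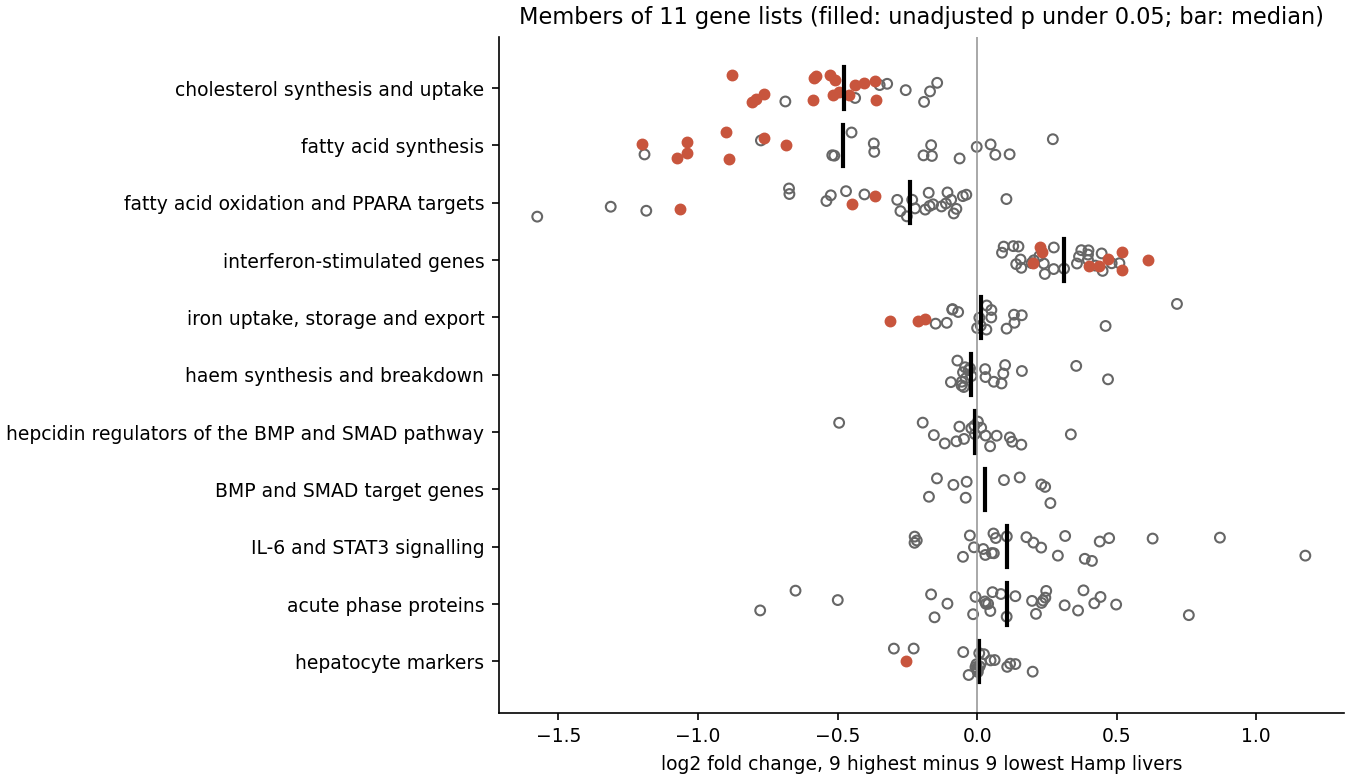
Fitted log2 difference (x axis), high minus low Hamp livers, of every measured gene in 11 lists (1 point per gene, filled at unadjusted p under 0.05, a bar at each list's median). All 24 points of the cholesterol list lie below 0 (median -0.48) and all 35 of the interferon list above 0 (median 0.31), and the BMP and SMAD lists straddle 0.

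Enzymes that make fatty acids showed lower values in the high group too, with some exceptions. Of 24 genes, 20 had a negative log2 difference, 8 (33.3%) at unadjusted p under 0.05, and the median was -0.48. Acacb, the mitochondrial acetyl-CoA carboxylase whose product restrains fat burning, had 60.8, 74.8 and 109 CPM (minimum, median, maximum) in the high and 66.8, 168 and 371 CPM in the low group. All 9 high livers lay below the low mean of 158 CPM, and 5 low livers lay above every high liver. The log2 difference was -1.04 (SE 0.29, edgeR adjusted p = 0.962). Acly, which makes cytosolic acetyl-CoA from citrate, had a median of 190 CPM in the high and 377 CPM in the low group, where wildtype C reached 1960 CPM (log2 difference -1.20, SE 0.43). Acss2, which makes acetyl-CoA from acetate, had medians of 104 and 145 CPM (log2 difference -1.07, SE 0.33). Elovl5, an elongase of polyunsaturated fatty acids, had medians of 642 and 1411 CPM (log2 difference -0.90, SE 0.28). Scd1, the desaturase that makes monounsaturated fatty acids, ranged from 9864 to 21620 CPM in the high and from 7883 to 41335 CPM in the low group (log2 difference -0.68, SE 0.26). Fasn, the fatty acid synthase, averaged 1297 ± 687 and 2131 ± 1547 CPM (log2 difference -0.77).

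The transcription factors above these enzymes had near-equal means: Srebf1 had 1048 ± 416.2 CPM in the high and 996 ± 145 CPM in the low group (SD, n = 9 each; log2 difference 0.05), and Mlxipl, the glucose-sensing factor ChREBP, had 1380 and 1266 CPM (0.07). The counts in the fatty acid list moved with single livers. Without wildtype C, 19 of 24 differences were negative, 3 at p under 0.05, with a median of -0.21, and without wildtype G there were 14 at p under 0.05 and a median of -0.57. Within genotypes the median was -0.65 among wildtype and -0.21 among knockout livers.

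Genes of fatty acid oxidation driven by the receptor PPARA were negative in 29 of 30 cases, 3 (10%) at unadjusted p under 0.05, with a median of -0.24. Ehhadh, an enzyme of peroxisomal oxidation, averaged 315 ± 86.5 CPM in the high and 430 ± 120.8 CPM in the low group (SD, n = 9 each; log2 difference -0.45, SE 0.20), and Ppara had a log2 difference of -0.25. Cpt1a, the gate to mitochondrial oxidation, averaged 299 and 312 CPM (log2 difference -0.04). Without wildtype G, 13 of the list were lower at p under 0.05. Leaving out wildtype L and M gave 1 lower (median -0.15), and leaving out wildtype C also gave 1 (median -0.21). Among wildtype livers alone 0 were lower at p under 0.05, with a median of -0.12, against 13 and a median of -0.36 among knockout livers. Of 21 genes for lipid droplet proteins, 18 were negative, 2 at p under 0.05 (median -0.16). With wildtype L and M left out, 14 of the 21 were negative, 0 at p under 0.05. With wildtype C left out, 18 were negative, also 0 at p under 0.05.

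**Figure D3:**
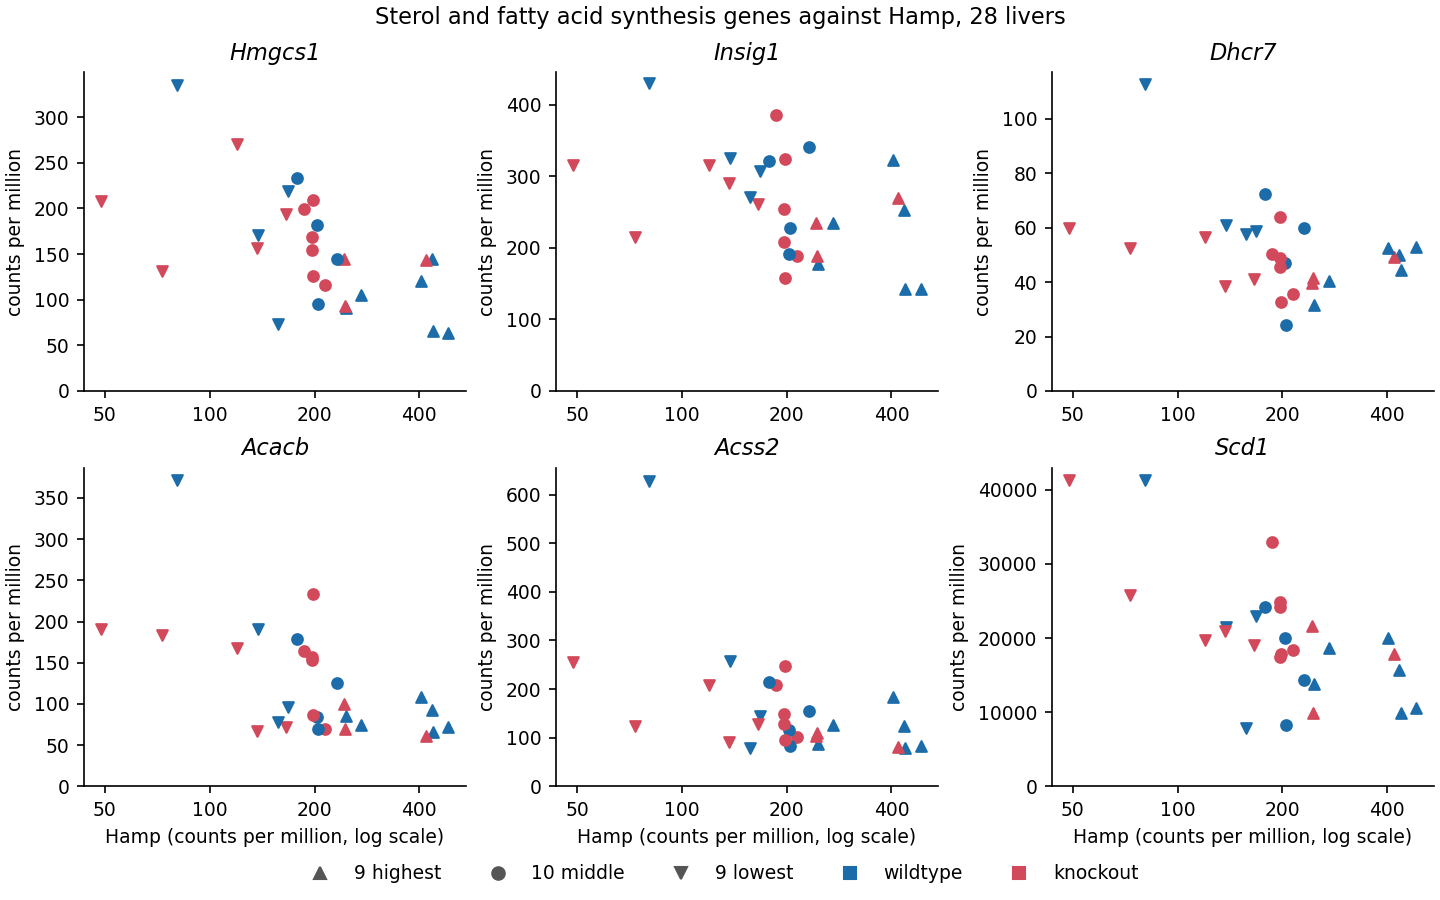
Level in CPM of 6 genes of sterol and fatty acid synthesis (linear axis from 0) against the Hamp level in CPM (log axis) for each of the 28 ranked livers, with symbols for the high, middle and low livers and colours for genotype. The high and low livers overlap in every panel, with Hmgcs1 medians of 105 and 194 CPM and Acacb medians of 74.8 and 168 CPM.

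Interferon-stimulated genes had higher values in the high group, with the highest in 1 liver. Of 36 listed genes 35 were measured, and all 35 had a positive log2 difference, 9 (25.7%) at unadjusted p under 0.05, with a median of 0.31. The mean log2 CPM of the list was 4.76 in the high knockout liver F, 3.55 to 4.11 in the other 8 high livers and 3.19 to 3.99 in the low livers. Without knockout F, 26 of 35 were positive, 3 at p under 0.05, and the median was 0.11; without wildtype G 16 were at p under 0.05. Among wildtype livers alone 23 of 35 were positive with a median of 0.06, and among knockout livers all 35, with a median of 0.69. Knockout F also had the deepest library, at 30438808 counts, and the highest level in the high group of the stellate cell (5.10), recruited macrophage (4.36) and cell cycle (3.30) lists; their part in the result was not tested.

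Ifit3b, an antiviral gene of the IFIT family, had the smallest p of the list. Its promoter, chr19:34607707-34608006 on the plus strand (RefSeq, GRCm38.p6), shows the motif that was searched for in this list: capitals mark the interferon response element, taken as the letters TTTC repeated after any 2 bases and looked for on both strands, which began 188 and 154 bases before the start.
Ifit3b: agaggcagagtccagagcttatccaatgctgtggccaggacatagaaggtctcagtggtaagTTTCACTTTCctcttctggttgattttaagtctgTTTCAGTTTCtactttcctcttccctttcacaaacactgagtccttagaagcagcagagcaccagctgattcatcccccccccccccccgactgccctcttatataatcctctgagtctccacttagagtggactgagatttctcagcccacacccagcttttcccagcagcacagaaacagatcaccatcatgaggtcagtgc
The motif occurred in 18 of 31 list genes with a window (58.1%), against 3.44% of all windows. Ifit3b had 2.54, 2.79 and 7.56 CPM (minimum, median, maximum) in the high and 1.28, 2.26 and 2.97 CPM in the low group, the maximum being knockout F (log2 difference 0.61, SE 0.20, edgeR adjusted p = 0.962). Ifit3b belongs to a family of close copies, so its reads may be shared. Mx2, an antiviral GTPase, had medians of 10.8 and 7.30 CPM, and all 9 high livers lay above the low mean (log2 difference 0.52, SE 0.20). Irf7, the master regulator of the interferon response, averaged 57.5 ± 25.2 and 40.7 ± 9.97 CPM (log2 difference 0.47, SE 0.19), and Irgm1, an interferon-induced GTPase, had a log2 difference of 0.23.

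The genes known to set hepcidin transcription through BMP signalling showed no such common direction. Of 20 regulators listed, 19 passed the filter on low counts, which Erfe did not; 9 were positive and 10 negative, 0 had an unadjusted p under 0.05, and the median was -0.01, with a range from -0.49 to 0.34. Bmp6, the iron-responsive ligand, had 2.45, 3.38 and 5.75 CPM (minimum, median, maximum) in the high and 1.76, 3.59 and 4.80 CPM in the low group (log2 difference 0.01, SE 0.18). Bmp2, the other endothelial ligand, had 9.25, 13.3 and 20.5 CPM and 7.12, 11.2 and 19.7 CPM (0.03). The groups overlapped almost throughout for both ligands, and knockout F was the highest of the high livers in each.

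Among receptors and co-receptors, hemojuvelin, listed as Hfe2, averaged 160 ± 22.3 CPM in the high and 178 ± 30.4 CPM in the low group (log2 difference -0.19, SE 0.10). Tfr2, the hepatocyte sensor of iron-loaded transferrin, had medians of 726 and 618 CPM (log2 difference 0.13), and Hfe, its partner mutated in haemochromatosis, had a log2 difference of -0.02. The type I receptors Bmpr1a and Acvr1 had -0.01 and 0.12, the type II receptors Acvr2a and Bmpr2 -0.07 and -0.05, and Neo1, which holds hemojuvelin at the membrane, 0.00. The signal carriers Smad1, Smad5, Smad9 and Smad4 had 0.07, 0.05, -0.15 and -0.06. Inhbb, a subunit of activin B, had -0.12. Of the inhibitors, Tmprss6 averaged 562 ± 61.1 and 547 ± 46.3 CPM (log2 difference -0.01), Spint2, which restrains Tmprss6, 164 ± 20.1 and 142 ± 24.3 CPM (0.16), and Nbl1, a secreted BMP antagonist, 1.47 and 1.97 CPM (-0.49, but 0.09 without wildtype G, which had 7.12 CPM). Fgl1, a liver-made protein reported to block BMP6 in mice, had medians of 348 and 122 CPM but reached 1142 CPM in the low wildtype liver G (log2 difference 0.34, SE 0.59).

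The transcripts that BMP signalling raises alongside Hamp were likewise divided. Of 12 listed targets 10 were measured, with Dlx3 and Nog under the filter. In the fit of both genotypes 5 were positive and 5 negative, 0 had an unadjusted p under 0.05, and the median was 0.03. That median joins genotypes that differed: it was -0.16 among wildtype livers alone, with 4 of 10 positive, and 0.38 among knockout livers alone. In the interaction test of genotype and group given below, 8 of the 10 were positive and 2 negative. Of these, 3 were positive at unadjusted p under 0.05, and the list median was 0.44. Id1, the classic target in liver, had 2.66, 4.84 and 14 CPM (minimum, median, maximum) in the high and 3.15, 5.30 and 10.9 CPM in the low group (log2 difference -0.14, SE 0.29). The maximum was again knockout F, and the other 8 high livers lay at or under 6.33 CPM. Smad7, the inhibitory SMAD induced with hepcidin, had medians of 21.6 and 19.1 CPM (log2 difference -0.04, SE 0.18), and Smad6, its relative, had 0.10. Id3, Atoh8 and Bambi had 0.26, 0.23 and 0.24, and Id2 and Id4 had -0.08 and -0.04. Pmepa1, an inhibitor of SMAD signalling, had 0.15. The 9 and 9 livers bound the Id1 difference only loosely, as its SE shows, so these values do not show that BMP signalling was equal.

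**Figure D4:**
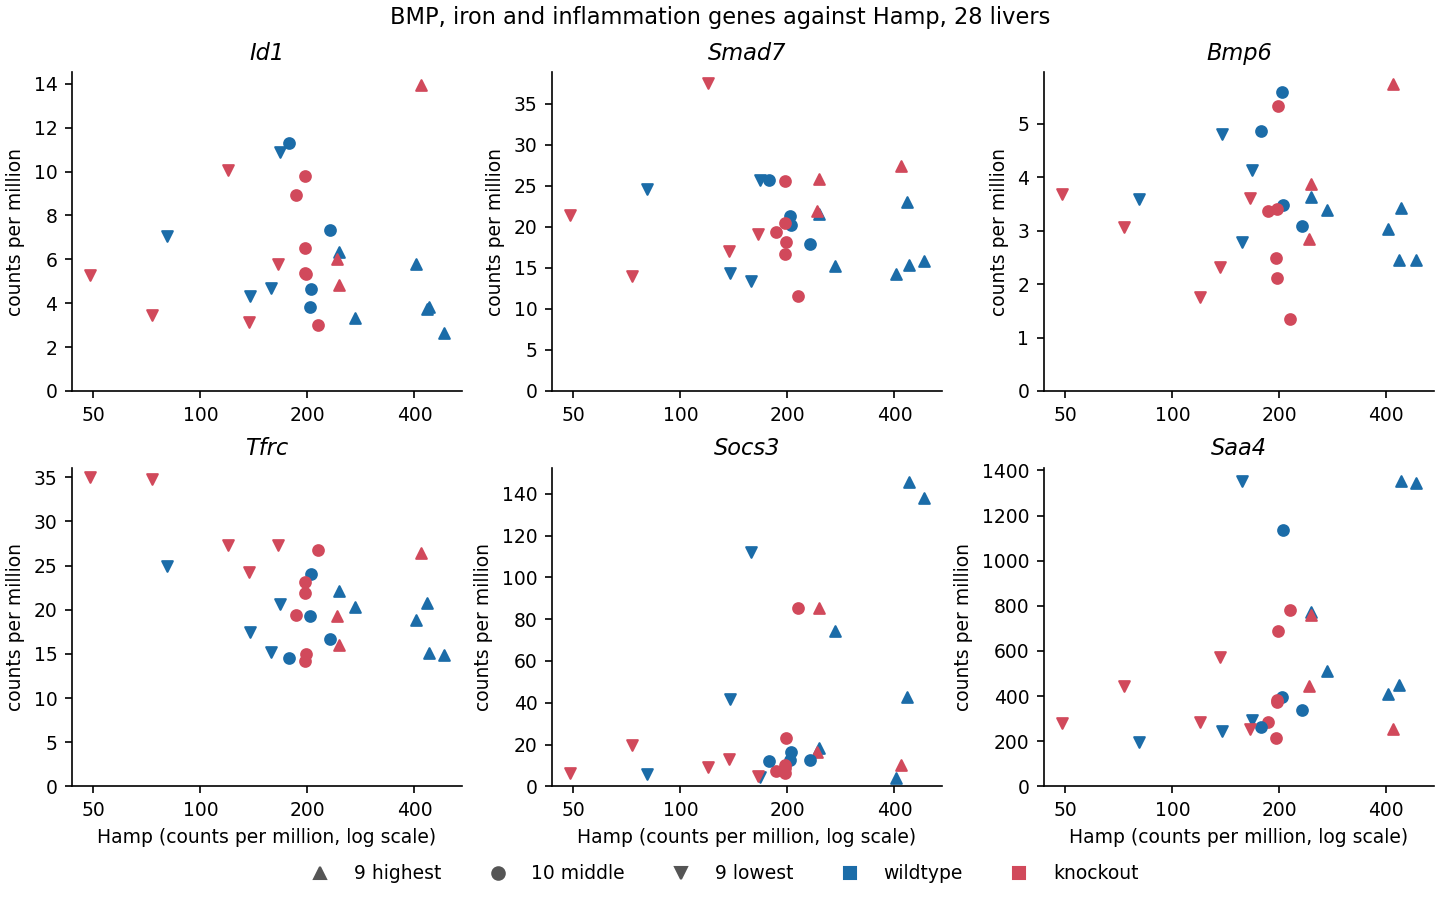
Level in CPM of Id1, Smad7, Bmp6, Tfrc, Socs3 and Saa4 (linear axis from 0) against the Hamp level in CPM (log axis) for each of the 28 ranked livers, with symbols for the high, middle and low livers and colours for genotype. Bmp6 medians are 3.38 and 3.59 CPM and Id1 medians 4.84 and 5.30 CPM, and Socs3 spans 4.22 to 145 CPM in the high group.

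The interleukin 6 and STAT3 genes depended on 1 low liver. Of 25 measured genes 19 were positive, 0 at unadjusted p under 0.05, with a median of 0.11. Without wildtype G 21 were positive, 9 at p under 0.05, with a median of 0.39, and among knockout livers alone 16 were positive, 7 at p under 0.05. The cytokine genes Il6, Osm and Lif were under the filter. Socs3, the feedback inhibitor that STAT3 induces, stood at 138, 145, 42.7, 4.22, 74.4 and 18.6 CPM in the high wildtype livers L, M, E, J, I and F and at 10.4, 85.2 and 16.7 CPM in the high knockout livers F, H and C. In the low group it stood at 4.58, 112, 41.9 and 6.08 CPM in wildtype B, G, K and C and at 4.95, 13.2, 9.38, 20 and 6.15 CPM in knockout D, B, K, A and L. The groups overlapped over nearly the whole range (log2 difference 1.18, SE 0.71, edgeR adjusted p = 0.962). Stat3 averaged 129 ± 40.3 and 98.6 ± 38.8 CPM (log2 difference 0.29), and Osmr and Il1r1, receptors of oncostatin M and interleukin 1, had 0.44 and 0.63.

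Acute-phase proteins, the secreted liver products of inflammation, turned on which livers were counted. Of 31 listed genes 29 were measured and 21 were positive, 0 at unadjusted p under 0.05, with a median of 0.11. The mean log2 CPM of the list was 6.78 to 9.29 in the high group, highest in wildtype L and M, and 6.88 to 9.96 in the low group, highest in wildtype G. Without G, 28 of 29 were positive, 10 at p under 0.05, with a median of 0.63; without L and M, 10 of 29 were positive, with a median of -0.07. Saa1, the main inducible serum amyloid, had medians of 627 and 73.4 CPM but maxima of 2577 and 8831 CPM, and its log2 difference was -0.16. Saa4, the constitutive form, had medians of 509 and 286 CPM (log2 difference 0.50), and the haptoglobin gene Hp had a log2 difference of 0.24. The part of the acute-phase levels of L, M and G in the other lists was not tested.

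Genes of iron handling differed little between the groups. Of 25 listed genes 21 passed the filter on low counts; 12 were positive and 9 negative, 3 (14.3%) lower at unadjusted p under 0.05, and the median was 0.01. Those 3 were Tfrc, Slc39a8 and Ireb2. Tfrc, the transferrin receptor whose messenger RNA is stabilised when cell iron is low, had 14.9, 19.3 and 26.4 CPM (minimum, median, maximum) in the high and 15.3, 25 and 35 CPM in the low group, where knockout A and L were the highest (log2 difference -0.31, SE 0.14, edgeR adjusted p = 0.962). Slc39a8, an importer of zinc, manganese and iron, averaged 23.8 ± 2.06 and 27.0 ± 3.13 CPM (log2 difference -0.21). Ireb2, the iron sensor that binds such messages, averaged 58.5 ± 5.43 and 66.7 ± 8.35 CPM (log2 difference -0.19). The ferritin chains Fth1 and Ftl1 had log2 differences of -0.11 and -0.09, the transferrin gene Trf had -0.00, and Slc40a1, which encodes ferroportin, averaged 70.1 ± 27.1 and 70.1 ± 18.2 CPM (0.05). Of 20 genes of haem synthesis and breakdown 9 were positive and 11 negative, 0 at p under 0.05, with Alas1, the first enzyme of haem synthesis, at 0.47 and Hmox1, which degrades haem, at 0.10.

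Markers of the liver's cell types were measured beside these lists. The 20 hepatocyte markers had a median of 0.01, with 12 positive and 1 lower at unadjusted p under 0.05. Of 20 Kupffer cell markers 19 were positive, 1 at unadjusted p under 0.05, with a median of 0.14, which was 0.39 without wildtype G. Among wildtype livers alone 5 of the 20 were positive and among knockout livers all 20. The 20 include Cd163, the targeted gene, which stood at 0 to 0.652 CPM in the ranked knockout livers. Of 25 stellate cell markers 22 were positive, with a median of 0.20, but 12 without knockout F, with a median of -0.00. Among wildtype livers 1 of the 25 was positive, with 15 lower at p under 0.05, and among knockout livers all 25, with 20 higher. Of all 13761 genes, 1194 were higher among knockout livers alone, and at most 842 were lower in the fit of either genotype alone. Of 17 markers of recruited and lipid-associated macrophages 13 were measured and 9 were positive, 1 at p under 0.05, with a median of 0.41, and their mean log2 CPM was 2.02 to 4.36 in the high and 2.29 to 3.37 in the low group. Without knockout F 5 of these 13 were positive, with a median of -0.04, and the count was 0 of 13 among wildtype livers (median -0.32, 4 lower at p under 0.05) and 13 of 13 among knockout livers (median 1.33). Sinusoidal endothelial markers, from the cells that make BMP6 and BMP2, were positive in 13 of 19 cases with a median of 0.03, and in 5 of 19 without knockout F; the count was 1 among wildtype and 18 among knockout livers. Bile duct markers were positive in 4 of 10 cases with a median of -0.01, in 1 of 10 among wildtype and 9 of 10 among knockout livers. Of 16 neutrophil and 20 lymphocyte markers only 4 and 5 passed the filter, and the neutrophil median was 0.07, and 1.10 without wildtype G. The Kupffer marker at p under 0.05 was Spic, a transcription factor of haem-loaded macrophages: it stood at 166 and 188 CPM in wildtype L and M and at or under 4.4 CPM in the other 7 high livers, and had 0.583 to 1.75 CPM in the low group. Of 21 cell cycle genes 16 were positive, 3 at p under 0.05, with a median of 0.35, but 9 without knockout F, 0 of them at p under 0.05, with a median of -0.09; among wildtype livers 7 were positive. The part of cell composition in the lists above was not tested.

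Every gene was also fitted on log2 Hamp over all 28 livers, which contain the 18 above and so are no independent test. The slopes had the same sign as the group differences in most cholesterol, fatty acid and interferon-stimulated genes. Other lists turned: sinusoidal endothelial markers had 13 of 19 positive differences but 7 of 19 positive slopes, and bile duct markers 4 and 7 of 10. Kupffer cell markers had 19 and 13 of 20. Of 13761 genes 0 (0%) had an edgeR adjusted p under 0.05, with a smallest of 0.156, and 394 (2.86%) had a positive and 476 (3.46%) a negative slope at unadjusted p under 0.05. All 24 cholesterol genes had a negative slope, 21 (87.5%) at p under 0.05, with a median of -0.28 in log2 CPM per doubling of Hamp. Fatty acid synthesis was negative in 21 of 24, 15 (62.5%) at p under 0.05, with a median of -0.38, and fatty acid oxidation in 29 of 30, with 9 at p under 0.05. Interferon-stimulated genes were positive in 34 of 35, with 8 at p under 0.05. The Hmgcs1 slope was -0.48 (SE 0.12, adjusted p = 0.268) and the Acacb slope -0.62 (adjusted p = 0.243). Id3 had a slope of 0.29 and Spint2 of 0.13, both at unadjusted p under 0.05 only.

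The 9 chow livers, in which Hamp ran from 329 to 1598 CPM, share no liver with the ranking and gave a separate view of the same slope. Of 14103 genes 0 (0%) passed in edgeR, with a smallest adjusted p of 0.183, and 2.89% had a positive and 2.97% a negative slope at unadjusted p under 0.05. DESeq2 called 46 genes in these livers. Cholesterol genes had the opposite sign there: 23 of 24 slopes were positive, 4 at p under 0.05, with a median of 0.68. Without wildtype A and knockout D, the chow libraries with low Cyp51, 20 of 24 were negative, with 4 lower and 1 higher at p under 0.05 and a median of -0.29. Fatty acid synthesis was negative in 18 of 24 (7 at p under 0.05, median -0.31) and, without those 2 livers, in 14 of 24 (3 at p under 0.05, median -0.16). Fatty acid oxidation was negative in 30 of 30 (median -0.25) but positive in 22 of 30 without those 2 livers (median 0.23). Interferon-stimulated genes were positive in 21 of 35, 2 at p under 0.05 (median 0.03), and in 22 of 35, 0 at p under 0.05, without them (median 0.08). Without those 2 livers the Hamp range narrowed: wildtype B to E spanned 852 to 942 CPM, and knockouts B, C and A had 818, 1216 and 1598 CPM. With genotype as covariate, the slopes over these 7 livers rest mostly on those knockouts. Hmgcs1 had a chow slope of 0.69 (SE 0.60) over 9 livers and of -1.10 (SE 0.48) over the 7 without those libraries. Scd1 had slopes of -1.10 and 0.19 (edgeR adjusted p = 0.686 and 0.976), and Id3 of 0.81 and 2.06 (SE 0.69). Whether those libraries carry exchanged labels was not tested, and the signs of the Hmgcs1 and Scd1 slopes turned with them.

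Whether the difference between high and low livers was itself different in the 2 genotypes was tested by the interaction of genotype and group. The test called 39 of 13761 genes (0.283%) at an edgeR adjusted p under 0.05, 31 with a more positive and 8 with a more negative difference in knockouts, and the unadjusted p was under 0.05 for 18.6%. Only 3 knockout livers were in the high group. The called genes included several of stellate cells, the vitamin A-storing cells that make liver matrix: of 25 stellate markers 24 had an unadjusted p under 0.05, and Colec11, Dcn and Timp2 were called. Other lists shared the direction. Of these the BMP and SMAD targets had 1 member called, Pmepa1, and the lists given next had 0. Of 13 recruited macrophage markers 10 (76.9%) were more positive in knockouts at unadjusted p under 0.05, with a median of 1.62 against 1.10 for stellate markers. That share was 42.9% for cell cycle, 40% for immediate early, 40% for bile duct and 28.6% for interferon-stimulated genes. It was 5% for Kupffer cell markers, of which 17 of 20 had a positive interaction (median 0.62). The 18.6% of all genes covers both directions, and the share for 1 direction was not counted. Of all 13761 genes 6954 had a positive interaction. The mean log2 CPM of the stellate list was 5.10, 4.48 and 4.23 in the high knockout livers F, H and C and 3.48 to 4.30 in the low knockouts, and 3.62 to 4.18 in the high and 4.12 to 4.45 in the low wildtype livers; the part of stellate cell content in the calls was not tested. Plac9a, the gene with the smallest p, had 4.99 to 8.10 CPM (median 7.26) in the 6 high wildtype livers and 9.77 to 12.8 CPM (median 12.2) in the 4 low wildtype livers. In knockouts the order was the other way, with 10.7, 12.1 and 12.7 CPM in the 3 high livers and 5.57 to 7.24 CPM (median 6.62) in the 5 low livers. The interaction was 1.5 (SE 0.20, edgeR adjusted p = 0.0074). Plac9a has a close copy, so its reads may be shared.

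Cygb, a globin of stellate cells, had 11.1 to 13.1 CPM in high and 14.6 to 16.3 CPM in low wildtype livers, against 33.8, 25.1 and 15.2 CPM in high knockouts F, H and C and 8.73 to 13.7 CPM in low knockouts (interaction 1.42, SE 0.22, edgeR adjusted p = 0.0347). Neither genotype's groups overlapped for Plac9a or Cygb, but these genes had the smallest p of the interaction test, so this is no separate evidence. The share of all genes without overlap within genotypes was not counted. The matrix proteoglycans Bgn and Dcn had interactions of 1.34 and 1.10, with Bgn at 274, 189 and 137 CPM in high knockouts F, H and C. Pmepa1, a target of TGF-beta and BMP signalling, was the only listed BMP target called (1.32, edgeR adjusted p = 0.0373), with medians of 4.33 CPM in high and 6.52 CPM in low wildtype livers and of 10.5 and 6.24 CPM in knockouts. Fgf1, a growth factor that lowers blood glucose in mice, had the reverse pattern (-0.75), with medians of 90.7 and 66.3 CPM in high and low wildtype livers and of 72.8 and 90.1 CPM in knockouts. These calls rested on few livers: without knockout F 1 gene was called, without knockout H 2, and without knockout C 474. Without wildtype L alone 1 gene was called, as without wildtype L and M together.

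**Figure D5:**
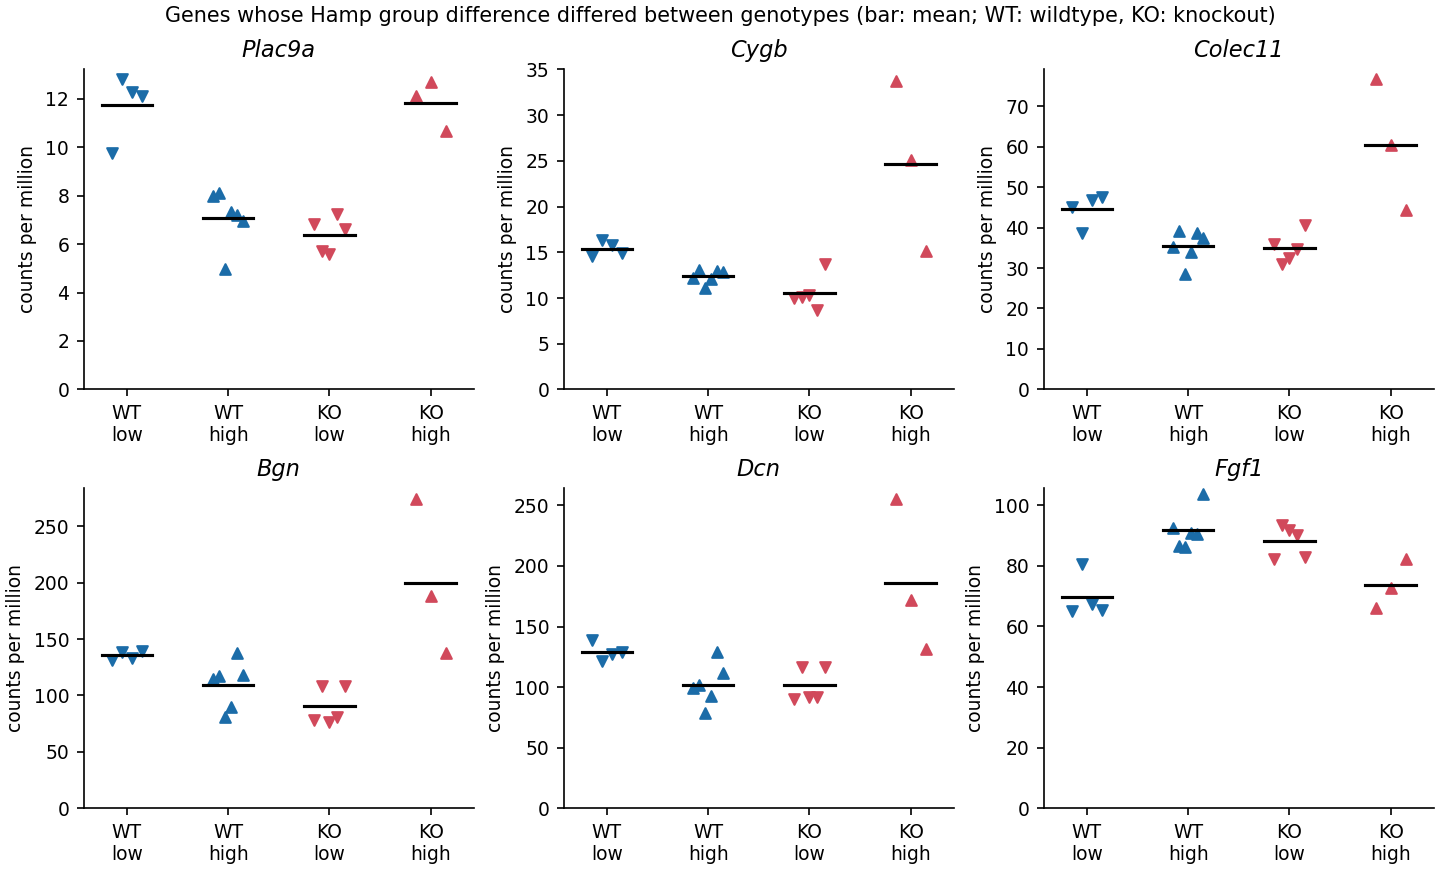
Level in CPM (linear axis from 0) of 6 genes called in the interaction test in each low and high Hamp liver, wildtype and knockout side by side, 1 point per liver with the mean as a bar. For Plac9a the high wildtype livers lie at 4.99 to 8.10 CPM, below the low ones at 9.77 to 12.8 CPM, and the order is the other way in knockouts.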

How the data were processed

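Liver RNA of 39 mice was sequenced as paired-end libraries. The authors deposited 1 table of raw read counts per gene, made with STAR 2.7.8a and featureCounts 2.0 on GRCm39, per the submitters' processing notes; annotation release and strand setting are not given in the sources used here, so overlapping, antisense and near-identical genes may share reads. No row was a total or an unassigned class. The reference tables gave symbols to 52083 of the 55416 identifiers, which hold 99.44% of the counts. Gene positions and promoters came from GRCm38 tables.

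The high and low livers were chosen by Hamp CPM. Genes passed edgeR's filter (minimum count 10, minimum total 15) by genotype over the 28 livers. The fits used edgeR 4.0.16 quasi-likelihood tests with TMM scaling and genotype as covariate on the 18 livers, in R 4.3.3, with Benjamini-Hochberg adjustment at 0.05, and SE from the F statistic. Hamp was left out of the tests. DESeq2 1.42.0 and limma 3.58.1 (voom) were alternatives, as were other scaling, no filter, library number as covariate and leaving out each liver. The scripts were tested on simulated data. Printed levels are CPM of the raw counts. The rule named the genes called, the 6 uncalled with the smallest p, and every tested regulator and target of the BMP pathway; other genes were chosen after their values were seen, and a few genes are not reported here. Members and the 35 gene lists were chosen with earlier results of these data known. The labels name 1 library per mouse, so p-values measure the spread between mice. Same-lettered wildtype and knockout livers did not deviate together (mean correlation 0.00713 over 13 pairs, from -0.249 to 0.390), so letters were not taken as pairs.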

Additional observations from a re-analysis of the deposited data

Results flagged for a closer look

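Within the 9 high livers, knockout F stood apart in 5 of the measures checked: Bmp2 at 20.5 CPM (the other 8 livers 9.25 to 14.4 CPM), Bmp6 at 5.75 CPM (2.45 to 3.87 CPM), Id1 at 14 CPM (2.66 to 6.33 CPM), Tfr2, where it was lowest at 508 CPM (653 to 790 CPM), and the mean log2 CPM of interferon-stimulated genes at 4.76 (3.55 to 4.11). Within the 9 low livers, wildtype G stood apart in Tfr2 at 778 CPM (564 to 644 CPM), Fgl1 at 1142 CPM (81.8 to 438 CPM), Nbl1 at 7.12 CPM (0.717 to 2.37 CPM) and the mean log2 CPM of acute-phase proteins at 9.96 (6.88 to 8.08). Knockout D had the lowest Pmepa1 at 4.53 CPM (5.92 to 7.32 CPM). Each was marked because its gap to the nearest liver, divided by the group's range, passed Dixon's 95% critical value for 9 samples. Chance marks about 1 in 20 groups, and 10 of 86 were marked here, many of them in the same 2 livers and so not independent.

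The difference between high and low livers differed by genotype, by the edgeR interaction test, in 39 genes. Among them Plac9a had an interaction (knockout minus wildtype, log2) of 1.5, Cygb of 1.42, Fstl1, a secreted glycoprotein of matrix-making cells, of 1.48, Slc25a4, the mitochondrial ADP/ATP carrier, of 1.37, Colec11, a collectin, of 1.01, and Rhbdf1, an inactive rhomboid protein, of 0.988. Knockout F, H and C made up the knockout side of the high group.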

How the results depend on the processing

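Between high and low livers, the count of genes higher stayed at 0 under every alternative run, and the count lower was 1 with DESeq2, 1 without the filter (Snhg11 in both) and 1 with the replicate block (Acss2, adjusted p = 0.0299); leaving out each liver gave 0 to 0. Same-lettered livers share a letter and no stated origin, and the replicate block left 3 residual degrees of freedom (2 in chow). The interaction count of 39 became 497 with DESeq2, 62 with voom, 175 with library number as covariate, 1 without wildtype L and M, 0 without the 5 livers of highest acute-phase level, 5 with the replicate block, and 1 to 474 leaving out each liver. The chow count of 0 became 46 with DESeq2, 94 without the filter, 4 with library number, 56 with the replicate block, and 0 to 4 leaving out each liver, 4 of them without wildtype A. The cause was not tested. For the 35 genes followed, of 1260 values under 36 settings, 2 passed the threshold. The sign changed in 132 values, which belonged to 27 of the 35 genes. No gene at all was past the threshold in the comparison as reported. Snhg11 went from -0.81 to 0.30 when 30 livers were ranked.

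The cholesterol list's median ran from -0.54 to -0.31 when each liver was left out, with 11 to 19 genes at unadjusted p under 0.05. It was -0.96 with the replicate block and 0.34 when all 30 livers were ranked, which put the left-out livers in the high group. The fatty acid list had 3 to 14 genes at p under 0.05 when each liver was left out, 15 with 7 against 7 livers and 16 with 14 against 14. At unadjusted p, 798 genes were higher and 675 lower without wildtype G, and 183 and 172 without wildtype L and M. Ranking by TMM-scaled CPM chose the same 9 and 9 livers. Genes under the count filter, such as Erfe and Il6, were not tested in the comparison as reported, so nothing is said of their differences.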

Other observations

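Other gene groups were measured in the same 18 livers, and no member passed after adjustment (edgeR). Usp2, a clock-controlled deubiquitinase, averaged 6.75 ± 3.12 CPM in the high and 3.44 ± 1.27 CPM in the low group (SD, n = 9 each; log2 difference 0.97, SE 0.28), and all 9 high livers lay above the low mean, while of 20 clock genes 13 were positive with a median of 0.05. Dusp1, an early response phosphatase, averaged 106 ± 51.1 and 188 ± 74.3 CPM (log2 difference -0.85, SE 0.27), and of 20 immediate early genes 11 were positive. Without knockout F 4 of these 20 were positive, with a median of -0.19; among wildtype livers 1 was, with 8 lower at unadjusted p under 0.05, and among knockout livers 16 were, with 8 higher. Pdk1, a kinase that restrains pyruvate oxidation, averaged 62.2 ± 15.0 and 89.1 ± 30.5 CPM (log2 difference -0.56, SE 0.21), with 10 of 19 hypoxia-inducible genes positive. Of 19 genes of gluconeogenesis and fasting 8 were positive.

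Akr1d1 and Cyp8b1, enzymes of bile acid synthesis, had log2 differences of -0.44 (SE 0.17) and -0.50 (SE 0.22), with 14 of 24 genes of that list negative. Genes for cytochromes and conjugating enzymes were negative in 18 of 26 cases, 1 at unadjusted p under 0.05, and 6 without wildtype G or without knockout F; among wildtype livers 13 of 26 were negative. Genes of iron-sulphur cluster assembly were negative in 16 of 17 cases with a median of -0.09, 0 at unadjusted p under 0.05, and those of endoplasmic reticulum stress positive in 21 of 26 with a median of 0.15, but in 10 of 26 among knockout livers. Male-biased genes of STAT5 were split evenly, 13 and 13, with 19 of 26 positive without knockout F. Csad, which makes the taurine precursor hypotaurine and was picked after its values were seen, had 132, 152 and 181 CPM (minimum, median, maximum) in the high and 69.0, 118 and 151 CPM in the low group (log2 difference 0.37), a slope over 28 livers of 0.24 (edgeR adjusted p = 0.243) and a chow slope of 1.36 (SE 0.24, adjusted p = 0.183), or 0.72 (SE 0.30) without the chow libraries wildtype A and knockout D. Aqp8, a water and peroxide channel picked likewise, had a log2 difference of -0.90 (SE 0.23).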
